A study of Homo sapiens with 4 samples.

Results

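The BCL-2 family decides whether the outer membrane of the mitochondrion stays sealed or opens, the step that commits a cell to the mitochondrial route of apoptosis. Survival members hold the pore-forming effectors in check, BH3-only members are sensors of stress that bind the survival members or the effectors, and the open effector pore releases cytochrome c for the apoptosome and the caspases. In breast tumours BCL2 is best known from estrogen receptor-positive disease, and MCL1 from triple-negative disease. Much of the family's control lies in protein binding, phosphorylation and turnover, which a transcript array does not read.

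The members examined here were 6 genes, taken as every spot whose gene name on the array was BAD, BAX, HRK, BNIP3L, BCL2 or MCL1. They were represented by 7 probes and 14 spots, among 1856 gene probes for 1768 named genes and 3840 spots in all. BAD, BAX, HRK and BNIP3L are the death-promoting members, with 4 probes, and BCL2 and MCL1 the survival members, with 3 probes, since BCL2 had a pair of them. Each of these probes was printed as 2 spots on each array.

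MDA-MB-231 cells, an established human line from a triple-negative breast adenocarcinoma, were kept for 24 h in RPMI medium with 100 ng/mL recombinant human LRG1 (rhLRG1, a secreted leucine-rich glycoprotein) or in RPMI medium without it. Each condition had 2 independently grown samples, numbered 2 and 3. The methods state 3 independent biological replicates for the RNA and 2 independent experiments for the labelling, and the series holds 2 samples per condition. The samples of one number shared a 2-colour cancer array, with rhLRG1-treated cells in Alexa Fluor 647 and untreated cells in Alexa Fluor 555 on both arrays. Treatment and dye therefore cannot be told apart for any value below. The model is 1 cell line at 1 dose and 1 time, with 2 arrays, and their number limits the precision.

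The median foreground of all gene spots was 397 (replicate 2) and 319 (replicate 3) in the rhLRG1 channel, against 508 and 425 in the untreated channel. In multiples of local background the medians were 5.69 and 4.57 in the rhLRG1 channel, against 11.8 and 8.71 in the untreated one. Before loess normalization the median log2 ratio was -0.42 on the array of replicate 2 and -0.21 on that of replicate 3, and after it -0.0061 over both. All log2 ratios below are loess-normalized, rhLRG1 over untreated, relative to that centre. CD44 and VIM, which mark the mesenchymal state of this line, lay 65.1 to 133 and 3.69 to 7.66 times above background in rhLRG1-treated cells, against 116 to 214 and 6.65 to 16.1 times in untreated cells. PGR, absent by definition from triple-negative cells, lay at 1.26 to 2.16 and 3.31 to 6.92 times background in the same order of groups. The luminal marker KRT19 lay at 2.23 to 3.31 and 4.57 to 7.25 times background in that order. ERBB2 had signal at 17.2 to 24.9 times background in rhLRG1-treated cells and 27.1 to 48.8 times in untreated cells, and no probe for ESR1 was matched. The leukocyte marker CD3G stayed at 1.04 to 1.31 times background in rhLRG1-treated cells and 1.15 to 1.98 times in untreated cells. In the same order of groups, the leukocyte marker PTPRC lay at 2.29 to 2.77 and 5.1 to 6.34 times. The fibroblast marker COL1A1 lay at 4.59 to 6.07 and 9.67 to 13.4 times, and COL1A2 at 1.67 to 2.72 and 4.15 to 5.44 times. The endothelial marker CDH5 lay at 1.22 to 1.38 and 3.04 to 3.77 times. Signal above background was thus not limited to markers expected in this line. Of the 10 marker probes measured, the Z rule described below called CD3G higher (2.38, not all spots above background) and PGR lower (-1.60). Of all gene probes it called 6.73% higher and 6.63% lower. The part of CD3G and PGR in the results was not tested.

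Across the family, transcripts of all 4 death-promoting members lay above the untreated level on both arrays after loess, by a mean log2 ratio of 0.048 to 0.23, though the mean was above 0 for only 2 of the 4 with median centring and for 0 with no normalization. None of them was called. Among the survival members, the BCL2 probe NM_000633 was called lower, at 0.796 of the untreated level, while the other BCL2 probe was at a log2 ratio of 0.036 and MCL1 at -0.013, neither called. A probe was called where its Z ratio, the difference of the standardized log10 intensities scaled by its SD over all probes, went beyond 1.5. By that rule 0 of 7 family probes were higher, where 6.73% of all gene probes were, and 1 of 7 was lower, where 6.63% of all were. The moderated test of limma with Benjamini-Hochberg adjustment called 0 of 7 family probes and 0% of all gene probes, the smallest adjusted p on the array being 0.124. At an unadjusted p under 0.05 it named 3 of the 7 (BNIP3L, HRK and BCL2 NM_000633), against 23.3% of all gene probes. The limma result depends on the processing, since with the deposited net intensities it called 4 of the 7 (these 3 and BAD) and 603 probes in all. The Z rule moved too, since with net intensities BCL2 NM_000633 was no longer called (-1.34) and BNIP3L was called higher (1.60).

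All 56 channel readings of the family, that is 14 spots in 2 channels on 2 arrays, exceeded the local background plus 2 of its SDs. Nearly all 3786 gene spots did so too, 3768 and 3758 in the rhLRG1 channel of replicates 2 and 3. In the untreated channel 3785 and 3781 did. Passing this limit therefore does not set the family apart. How far the family readings exceeded local background differed. The MCL1 spots reached 1.41 to 2.22 times background in rhLRG1-treated cells and 3.70 to 4.85 times in untreated cells, while those of BCL2 NM_000633 reached 8.17 to 18.6 times and 18.2 to 41.5 times.

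BNIP3L (NM_004331) encodes an outer-membrane protein with a BH3-like region that can promote death and also serves as a receptor for mitophagy, the removal of mitochondria. Its 2 spots read 1374 and 211 in rhLRG1 replicate 2 and 404 and 173 in rhLRG1 replicate 3, against 1363 and 249.6 in untreated replicate 2 and 443 and 196 in untreated replicate 3. The spots of one sample thus differed widely in brightness, by 6.22-fold on the array of replicate 2 and 1.72-fold on that of replicate 3. Their normalized ratios lay closer, at 0.23 and 0.28 on the first array and 0.20 at both spots on the second, whereas the net intensities gave 0.24 and 0.52 on the first and 0.31 and 0.71 on the second. The probe averaged 0.26 and 0.20 on the 2 arrays and 0.23 over both (moderated SE 0.058, 95% interval 0.081 to 0.37), a fold of 1.17. limma gave an unadjusted p of 0.00971 and an adjusted p of 0.145, and the Z ratio was 1.28, so BNIP3L passed neither rule as processed here. It passed limma with no background correction (adjusted p 0.0167), plain subtraction (0.0197) and net intensities (0.000103), and the Z rule with print-tip loess (1.87), net intensities (1.60) and loess-normalized channels (1.56). It stood at the 93.8th percentile of all gene probes by mean log2 ratio.

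HRK (NM_003806) is a BH3-only gene, known best from neurons deprived of growth factor, whose protein binds survival members. Its spots read 624 and 289 in rhLRG1 replicate 2 and 466 and 269 in rhLRG1 replicate 3, against 598 and 313 in untreated replicate 2 and 567 and 332 in untreated replicate 3. After normalization the ratio was larger on the array of replicate 2 (0.37 and 0.34 at its spots) than on that of replicate 3 (0.039 and 0.11). The array means were 0.36 and 0.074, so the mean of 0.22 (SE 0.083, 95% interval 0.0064 to 0.43) rests mainly on replicate 2. The unadjusted limma p was 0.0454, the adjusted p 0.208 and the Z ratio 1.31. HRK passed the Z threshold with replicate 2 alone (1.56) and was at 0.625 with replicate 3 alone. HRK and BNIP3L were printed in the same block of the array, whose median log2 ratio was -0.066 and -0.0093 on the arrays of replicates 2 and 3, opposite in sign to both genes.

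BAD (NM_032989) encodes a BH3-only protein that neutralizes BCL2-type proteins unless survival kinases phosphorylate it and 14-3-3 proteins hold it in the cytosol. Its spots read 312 and 149.9 in rhLRG1 replicate 2 and 271 and 162 in rhLRG1 replicate 3, against 374 and 199 in untreated replicate 2 and 374 and 205 in untreated replicate 3. The raw readings were lower in rhLRG1-treated cells at every spot, as was the median of the channel, and the normalized ratios were above 0 at every spot. They were 0.17 and 0.20 on the array of replicate 2 and 0.0099 and 0.15 on that of replicate 3. The mean was 0.13 (SE 0.061, 95% interval -0.020 to 0.29), with an adjusted p of 0.267 in limma and a Z ratio of 0.573, short of both rules. With each array centred on its median in place of loess, BAD was at -0.031.

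BAX (NM_004324), the pore-forming effector of the family, was dim, its spots reading 169 and 138 in rhLRG1 replicate 2 and 149 and 102 in rhLRG1 replicate 3, against 227 and 204 in untreated replicate 2 and 221 and 165 in untreated replicate 3. Of its 4 spot ratios 3 were above 0. The mean log2 ratio was 0.048 (SE 0.058, 95% interval -0.099 to 0.19), with an adjusted p of 0.653 in limma. Its Z ratio was -0.121, of the opposite sign, and with median centring its log2 ratio was -0.20, so the sign of BAX depends on the scaling. BAX was at 0.080 and 0.015 on the arrays of replicates 2 and 3. The block in which it was printed had medians of 0.062 and -0.00019 there. With print-tip loess BAX was at -0.0028. The part of the block in its ratio was not tested.

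**Figure D1:**
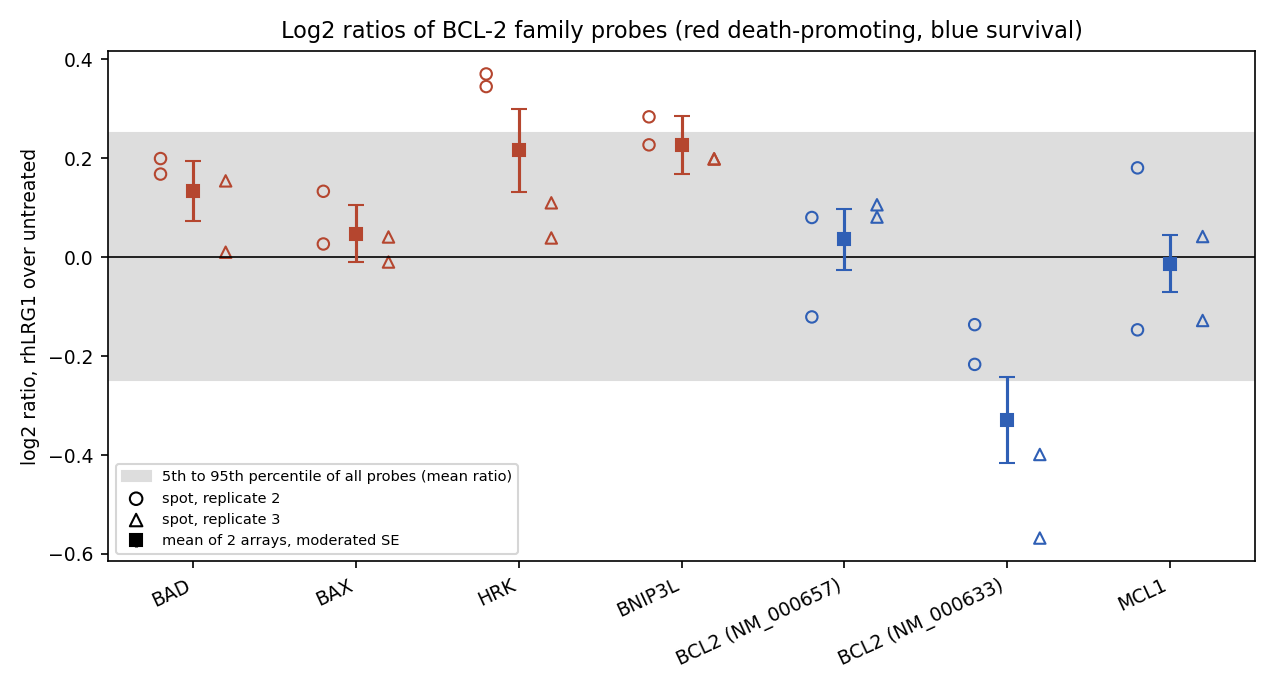
Loess-normalized log2 ratio (rhLRG1 over untreated) of the family probes, with single spots of replicate 2 as circles and of replicate 3 as triangles, and squares with bars for the mean of 2 arrays and its moderated SE. BNIP3L lies between 0.20 and 0.28 at its spots, and BCL2 NM_000633 is the one probe outside the grey band, the 5th to 95th percentile of all gene probes (-0.25 to 0.25).

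BCL2, the founding survival member, was probed against the accessions of 2 of its transcript variants, which share their first coding part. NM_000633 is the variant that encodes the full protein with its membrane anchor, and NM_000657 encodes a shorter form with another C-terminus. The probe oligonucleotides were not analysed here, so which transcripts each probe binds is not known. At NM_000633 the spots read 1251 and 539 in rhLRG1 replicate 2 and 1239.95 and 606 in rhLRG1 replicate 3, against 1596 and 774 in untreated replicate 2 and 2077 and 984 in untreated replicate 3. The rhLRG1 reading was below its untreated partner at every spot, most widely on the array of replicate 3. The spot ratios were -0.14 and -0.22 on the array of replicate 2 and -0.57 and -0.40 on that of replicate 3.

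The mean for NM_000633 was -0.33 (SE 0.087, 95% interval -0.55 to -0.11), at the 2.05th percentile of all gene probes. Its Z ratio was -1.98, past the threshold, while limma gave an unadjusted p of 0.0111 and an adjusted p of 0.145. The call did not survive another treatment of the background, the Z ratio being -1.33 with no background correction, -0.559 with plain subtraction and -1.34 with the deposited net intensities. It also rests on the array of replicate 3, since the Z ratio was -3.79 with that array alone and -0.488 with the array of replicate 2 alone. Among the named genes nearest to it by Euclidean distance in the 2 array ratios were YES1 (distance 0.0240) and RAB3D (0.0553). Likeness over 2 arrays says no more than that their values lie close.

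At NM_000657 the spots read 2953 and 1705 in rhLRG1 replicate 2 and 2037 and 1330.5 in rhLRG1 replicate 3, against 3045 and 2095 in untreated replicate 2 and 2049 and 1418 in untreated replicate 3. The rhLRG1 reading was below its untreated partner at every spot, less widely than at NM_000633. The array ratios were -0.020 and 0.093 and the mean 0.036 (SE 0.062, 95% interval -0.12 to 0.19), with an adjusted p of 0.741 in limma and a Z ratio of 0.201. NM_000633 lay below NM_000657 by 0.16 on the array of replicate 2 and by 0.58 on that of replicate 3. The 95% intervals of the BCL2 probes overlap between -0.12 and -0.11, and the difference itself was not tested.

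MCL1 (NM_021960), a short-lived survival protein that restrains effectors and several BH3-only proteins, lay close to its background in the rhLRG1 channel. Its spots read 155 and 99.8 in rhLRG1 replicate 2 and 139 and 98.35 in rhLRG1 replicate 3, against 204 and 161 in untreated replicate 2 and 204 and 202 in untreated replicate 3. The spot ratios fell on both sides of 0 on each array, 0.18 and -0.15 in replicate 2, and 0.042 and -0.13 in replicate 3. These gaps of 0.33 and 0.17 compare with a median gap between the spots of a probe of 0.0753 and 0.0533 over all probes. The mean was -0.013 (SE 0.058, 95% interval -0.16 to 0.13), with an adjusted p of 0.913 in limma and a Z ratio of -0.520. With no normalization, which lowered the median of all probes to -0.31, MCL1 was at -0.59 (adjusted limma p 0.0122).

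When the gene probes were split by brightness into 3 equal groups, BAX, BAD and MCL1 fell in the dimmest, HRK and BNIP3L in the middle and both BCL2 probes in the brightest. The Z rule called 23.3% of the dimmest group, 9.22% of the middle and 7.59% of the brightest.

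**Figure D2:**
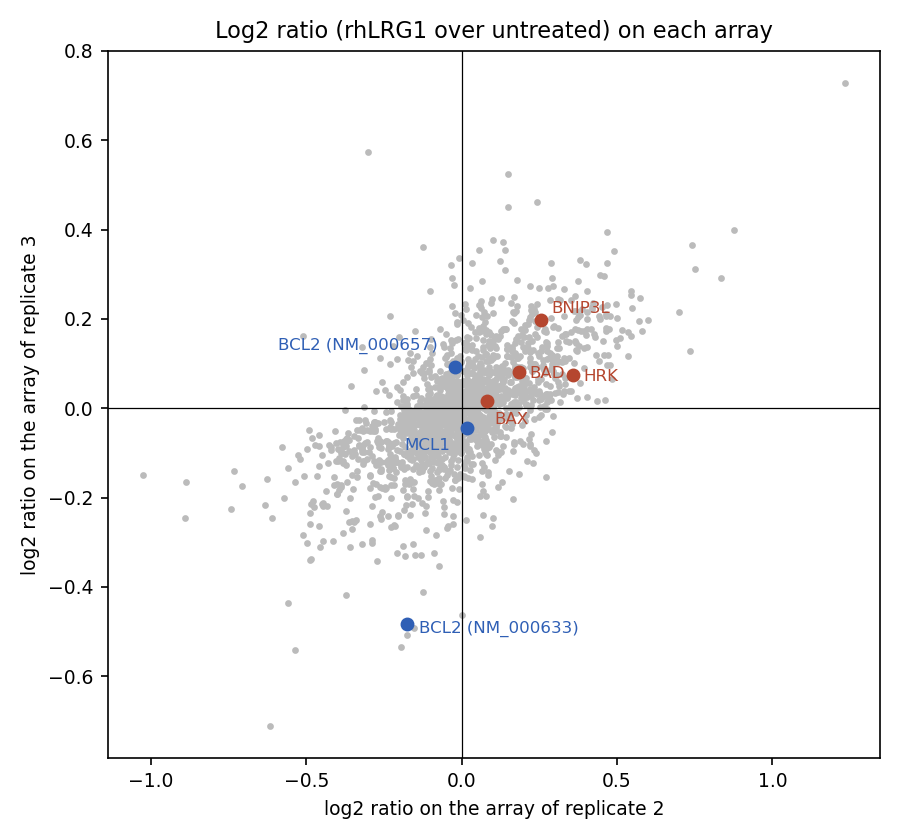
Log2 ratio (rhLRG1 over untreated) of every gene probe on the array of replicate 2 (x axis) and of replicate 3 (y axis), with death-promoting members in red, survival members in blue and the other probes in grey. After loess the 4 death-promoting probes lie to the upper right of the origin, BCL2 NM_000633 to the lower left, and MCL1 and BCL2 NM_000657 near the origin with signs that differ between arrays.

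The death-promoting members were then set against the survival members. Their mean log2 ratio was 0.22 on the array of replicate 2 and 0.093 on that of replicate 3, against -0.041 and -0.12 for the survival members, with the BCL2 probes averaged first. The death-promoting mean exceeded the survival mean by 0.26 and 0.21, a difference of 0.236 ± 0.034 (SD, n = 2 arrays). Both means were lower on the array of replicate 3, and their own SDs were larger, 0.089 for the death-promoting and 0.055 for the survival mean. Pairing each of the 4 death-promoting probes with each of the 3 survival probes gave 12 pairs. In 9 of them the death-promoting probe had the higher ratio on both arrays, in 0 the lower on both, and in 3, all with BCL2 NM_000657, the order differed between arrays. The genes were chosen with results known, so this order carries no test.

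By single spots, 15 of 16 readings of death-promoting probes were above 0, against 5 of 12 of survival probes, the exception among the 16 being a BAX spot at -0.0099 in replicate 3. These readings are repeat spots of 4 and 3 probes on 2 arrays and do not count as replicates. Of all gene probes, 48.1% had a mean ratio above 0, and 75.3% had the same sign on both arrays. Every spot on both arrays was above 0 for 3 family probes (BNIP3L, HRK and BAD), which 25.4% of all gene probes also showed, and below 0 for 1 (BCL2 NM_000633), which 27.3% of all showed. The size of the separation depended on the genes and probes taken. With BCL2 read by NM_000657 alone the difference was 0.144 ± 0.108 (SD, n = 2 arrays), with NM_000633 alone 0.327 ± 0.040, and without MCL1 0.303. With the arrays centred on their medians 2 of the 4 death-promoting members (BNIP3L and HRK) lay above 0, and the difference was 0.181.

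**Figure D3:**
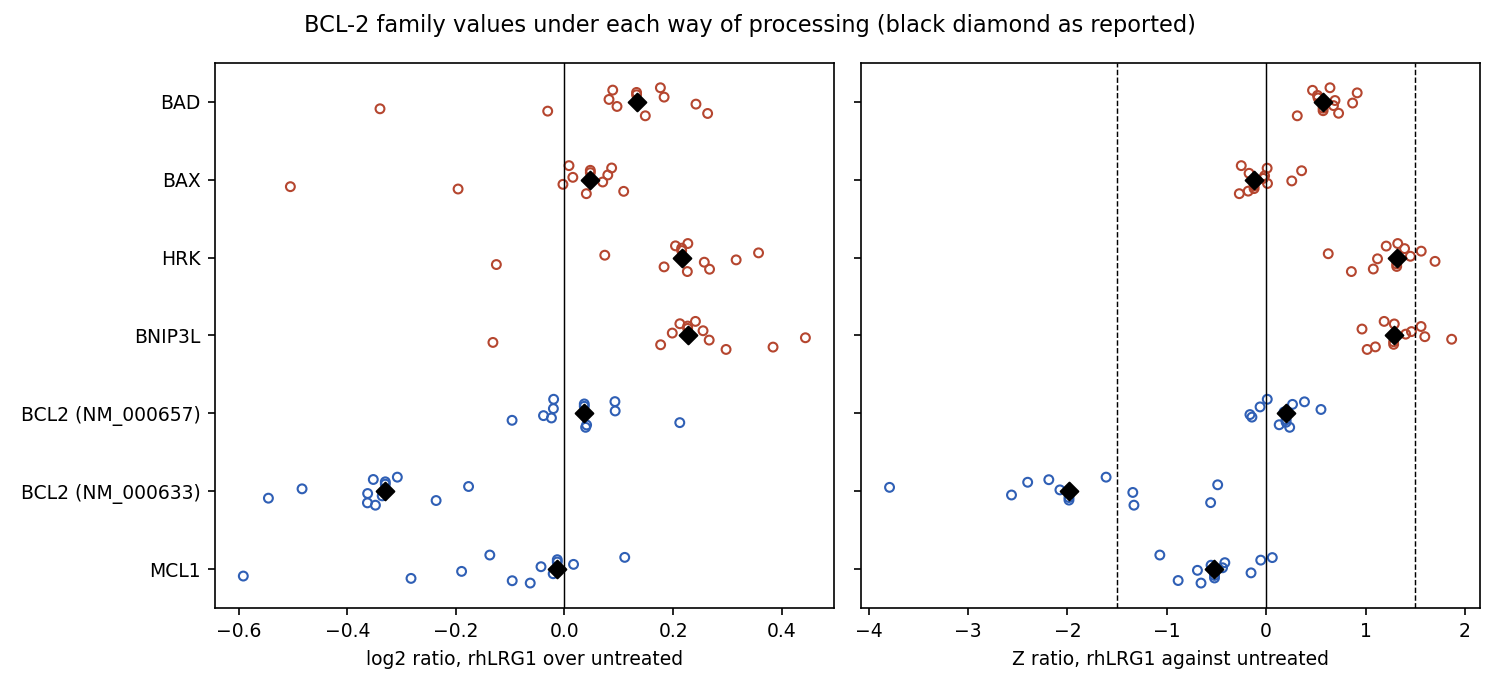
Log2 ratio (left) and Z ratio (right, dashed lines at the threshold of 1.5 in size) of each family probe as reported (black diamond) and under each other way of processing (circles). BCL2 NM_000633 lies below 0 throughout, on both sides of the lower threshold, while the other probes cross 0 in the log2 panel in at least 1 setting.

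Of 17 other family genes listed, 1 was on the array, BCL2L1, whose main product is the survival protein BCL-XL. It was not called (log2 ratio 0.063, Z ratio 0.282).

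Downstream of the pore, 4 of 24 listed genes of the apoptosome, the caspases and their inhibitors were measured, with 0 called higher and 1 lower. Over all gene probes 6.73% were called higher and 6.63% lower. Of these 4 genes, DAP3, a mitochondrial ribosomal protein also tied to death signalling, was the one called (Z ratio -3.65). Its log2 ratio was -1.02 on the array of replicate 2 and -0.15 on that of replicate 3, a mean of -0.59, with an adjusted p of 0.178 in limma. PARP1, a caspase substrate, was at 0.16 and not called. APAF1, the scaffold of the apoptosome, was at -0.010, and BIRC5, which encodes survivin, at -0.080.

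The death receptor route, which joins the mitochondrial one through cleavage of BID, had 11 of 16 listed genes on the array. Of these, 1 was called higher, 1 lower and 6 lay above 0 (median log2 ratio 0.064), and 4 lay above 0 with median centring. Over all gene probes 6.73% were called higher, 6.63% were called lower, and 48.1% lay above 0 (49.7% with median centring). CASP8, the initiator caspase that cleaves BID, was called higher (0.47 and 0.18 on the 2 arrays, mean 0.33, Z ratio 1.87, adjusted limma p 0.145). TNF was called lower (-0.35 and -0.18, mean -0.26, Z ratio -1.71). The second initiator caspase, CASP10, was at 0.21 and fell short of the threshold with a Z ratio of 1.35. FAS, a receptor upstream of both, was at 0.17 and not called, and at -0.098 with median centring. Among the 5 genes of the list below 0 were the receptors TNFRSF10A (-0.14) and TNFRSF10B (-0.097) and the ligand FASLG (-0.074). None of these was called.

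Of the kinases and partners that control BAD, 9 of 21 were measured, with 1 called higher and 2 lower. The list had 1 probe above 0 and 8 below (2 above with median centring) and a median log2 ratio of -0.14, against -0.0061 over all gene probes. Over all gene probes 6.73% were called higher, 6.63% were called lower, and 964 of 1856 lay below 0. The list was chosen with results known, so its counts carry no test. PAK1, which phosphorylates BAD or acts upstream of its kinases, was called lower with -0.27 and -0.34 on the 2 arrays (mean -0.31, Z ratio -1.71). The 14-3-3 gene YWHAE was called lower too, with -0.30 and -0.18 (mean -0.24, Z ratio -1.60), and the 14-3-3 gene SFN was at -0.19 and not called. PIM1, a kinase that inactivates BAD, was called higher by its Z ratio of 2.84 at a log2 ratio of 0.11, with not all of its spots above background.

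Of 11 listed regulators of MCL1, 4 were measured and 0 called. STAT3 was at -0.12 and IL6 at -0.11, while STAT5B (0.043) and IL6ST (0.014) lay above 0. For this list and those below, the share of all gene probes called was 6.73% higher and 6.63% lower. Of 13 genes of hypoxia and mitophagy, the setting in which BNIP3L is induced, 4 were measured and 0 called. VHL and HIF1A were both at 0.13. The 5 housekeeping genes measured, 0 of them called, ran from -0.086 for GAPDH to 0.16 for TFRC, a range that holds BAD, BAX, MCL1 and BCL2 NM_000657 and leaves BNIP3L, HRK and BCL2 NM_000633 outside. Its upper end rests on TFRC alone. The next highest housekeeping gene, B2M, was at 0.023, below BAD, BAX and BCL2 NM_000657.

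**Figure D4:**
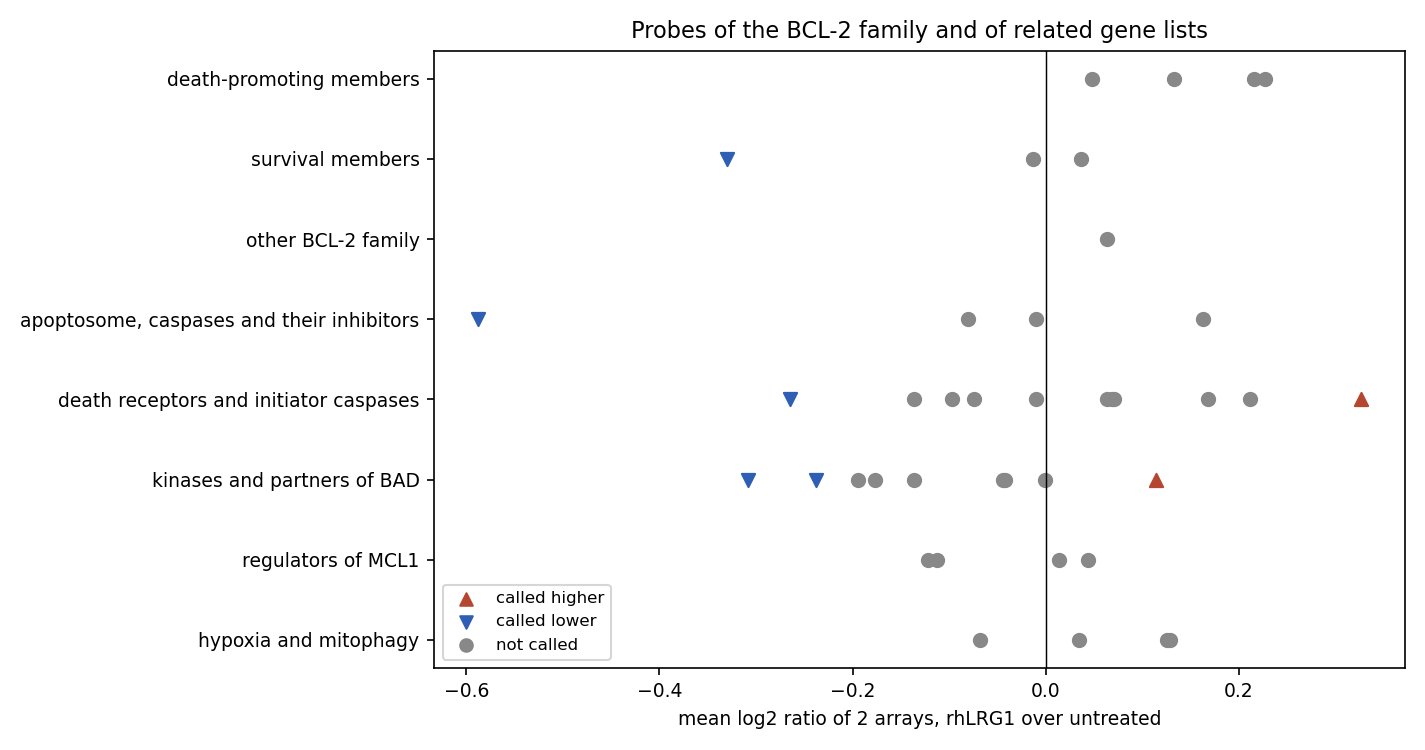
Mean log2 ratio of 2 arrays (rhLRG1 over untreated) of each probe of the family and of related gene lists, with triangles for Z ratio calls (up higher, down lower) and grey circles for the rest. After loess the death-promoting members lie between 0.048 and 0.23 with no call. Below 0 lie 8 of the 9 kinases and partners of BAD, and 964 of all 1856 gene probes.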

How the data were processed

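The authors deposited, per spot and channel, scanned intensities with their local background, net intensities and ratios. The methods name genArise with default parameters and a Z ratio threshold of 1.5 in size, and R 4.2.2 is listed in the processing notes of the submitters. The net intensity is the raw one minus background, with the rhLRG1 channel raised further, by a larger proportion at dim spots than at bright ones. The deposited ratios were not used, and the series' processed table and value table, which repeat the net intensities, served as a check. No column was left out for want of a sample.

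From the scanned intensities, background was corrected by normexp (offset 50), and log2 ratios were loess-normalized within each array in R 4.3.3 with limma 3.58.1, the 54 control spots having weight 0 in the fit. Spots of a probe were averaged, and the BCL2 probes were kept apart. limma (lmFit, eBayes) was fitted over 1856 gene probes with Benjamini-Hochberg adjustment at 0.05. Since the ratio is taken within an array, the array is the replicate block, and same-numbered samples, which share an array, deviated together (r = 0.945 across probes). The Z ratio used the background-corrected channels before loess. Names came from a RefSeq table of GRCh38.p14 (1701 probes by accession, 60 by symbol, 15 by synonym, 5 kept the file's name, 75 had none).

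The members and gene lists were chosen with earlier results of these data known. All members are named, and from the other lists the genes called by the Z ratio and the 2 largest per list by mean log2 ratio. APAF1, BIRC5, CASP10, FAS, FASLG, TNFRSF10A, TNFRSF10B, STAT5B, IL6ST and SFN were added after their values were seen. The genes nearest to a called member were chosen as the 3 at the smallest distance. Some items under this rule, and 1 gene list, are not reported here. The script was tested on simulated data. Alternatives were the background correction, the normalization, the net intensities, a dim-probe filter, single spots, loess-normalized channels for the Z ratio, leaving out each replicate, and the fit without the block.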

Additional observations from a re-analysis of the deposited data

How the results depend on the processing

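The excess of the death-promoting over the survival mean (0.236) stayed above 0 in all 19 alternatives, from 0.144 to 0.463. It was 0.287 with no background correction, 0.385 with plain subtraction, 0.181 with median centring and with no normalization, 0.463 with the deposited net intensities, 0.157 from first spots, 0.314 from second spots, and 0.212 to 0.260 without one replicate. Among alternatives chosen after seeing the data, it was 0.144 and 0.327 with BCL2 read by NM_000657 or NM_000633 alone, 0.169 without BCL2, 0.303 without MCL1 and 0.272 without BAX. These alternatives are not independent checks. A constant shift cancels in the difference, so median centring and no normalization had to give the same value. The dim-probe filter kept every family probe, and the values of single replicates average to the reported one. The genes were chosen with results known, so the count of 19 carries no test.

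By Z ratio, 54 in place of 125 probes of the array were higher with plain subtraction. Of the family, 0 were lower with no background correction, plain subtraction or net intensities (0 to 1 without one replicate), and 2 were higher with print-tip loess (HRK 1.70, BNIP3L 1.87), 1 with net intensities (BNIP3L 1.60) and 1 with loess-normalized channels (BNIP3L 1.56), against 0 to 1 without one replicate. BCL2 NM_000633 was below 0 throughout (-0.55 to -0.18), with Z ratios of -1.33, -0.559 and -1.34 in those 3 settings and -0.488 without replicate 3, where its call was lost.

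limma called 432 probes with no background correction, 422 with plain subtraction, 503 with no normalization, 603 with net intensities, 1 from first spots, 36 from second spots and 0 with median centring, print-tip loess, the dim-probe filter and a robust variance model. Without either replicate 1 array remained, with no residual degrees of freedom, so limma gave no value there. Net intensities gave adjusted p of 0.00236 for BCL2 NM_000633, 0.0135 for BAD, 0.00593 for HRK and 0.000103 for BNIP3L. Among the family, BCL2 NM_000633 (0.0405) and BNIP3L (0.0167) also passed with no background correction, BAD (0.0426) and BNIP3L (0.0197) with plain subtraction, and BCL2 NM_000633 (0.0218), MCL1 (0.0122) and BAX (0.0344), all below 0, with no normalization. With no replicate block limma called 0, also at an unadjusted p under 0.05 (smallest adjusted p 0.999824), against 433 at that p with the pairing by array.

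Signs turned as follows. With no normalization, which moved the median of all probes to -0.31, BAD was at -0.34, BAX -0.50, HRK -0.13, BNIP3L -0.13 and BCL2 NM_000657 -0.097. With median centring BAD was at -0.031 and BAX at -0.20. With print-tip loess BAX was at -0.0028 (Z ratio 0.0136) and BCL2 NM_000657 at -0.024 (Z ratio -0.143). BCL2 NM_000657 was at -0.039 with net intensities (Z ratio -0.163), -0.020 to 0.093 without one replicate (Z ratio -0.0612 to 0.552) and -0.020 from second spots. MCL1 was at -0.043 to 0.017 without one replicate and 0.11 from first spots (Z ratio 0.0618). The Z ratio of BAX was 0.258 with net intensities, 0.357 with loess-normalized channels and 0.00985 from first spots. The cause of these moves was not tested. The dim-probe filter kept all 7 family probes.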
